A study of Zea mays with 12 samples.

Results

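The genes described here are 42 maize genes that carry names in the style of a plant chromatin database, a short lower-case prefix for the kind of protein followed by a 3-digit number, such as nfd101 or vef101. They were found by matching the symbols and synonyms of the 1108 genes named on the array against that pattern, after names of genetic markers, histone deacetylases (hda), acetyltransferases named hac and linker histones (hon) had been set aside. The gene ham101 also bears the name hac108 and was kept for its other name. The 42 genes are read by 53 probe sets, and the brightest probe set on average stood for each of the 6 genes that have several. Expression was measured in giant cells, the enlarged feeding cells that the root-knot nematode Meloidogyne incognita induces in roots, at 21 and at 14 days after inoculation, and in control cells at 21 and at 14 days. The labels call the plants a cross between A188 and B73. They were inoculated at the age of 2 weeks with 1000 juveniles, so the control cells also came from infested roots, from stretches without nematodes. Cells were cut out by laser capture, about 40 to 60 giant cells (5000000 square micrometres) or 75 to 150 control cells (13000000 square micrometres) per sample, with 3 arrays, biological replicates by the labels, in each of the 4 groups. Arrays are named by cell type, day and replicate number, as in control 14-day array 2. The labels do not say which root tissue the control cells belonged to, or whether an array of giant cells and one of control cells came from the same plant.

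Chromatin is DNA wrapped around histone proteins, and the proteins studied here build it, mark it and read it. Histone chaperones such as the NAP1 family, the MSI1 family and the FACT complex place histones on DNA or take them off during replication and transcription. SET domain proteins methylate histones, and the Polycomb group uses such methylation to keep genes silent. DNA methyltransferases and methyl-CpG-binding proteins write and read the methylation of DNA. Acetyltransferases and deacetylases add and remove acetyl groups, which bromodomain proteins bind. Giant cells go through repeated rounds of nuclear division and DNA synthesis without cell division.

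Of the 42 genes, 40 were bright enough to be tested, which required at least 3 arrays with a signal past that array's 40th percentile. The exceptions were cha101, which was above that level on 0 arrays (signals from 8.9 to 69.9), and hcf106, which was above it on 2 (signals from 49.8 to 145.2). The name of hcf106 (synonym TATB) belongs to a protein of the thylakoid membrane and not to chromatin, so all of the 40 tested genes have chromatin-type names. Of these, 33 were above the level on all 12 arrays. The genes sdg113 and epl101 were admitted through giant-cell arrays alone, with fewer than 3 control arrays above the level.

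Median signals of the 12 arrays lay between 182.2 and 229.9, and arrays of 1 group correlated at 0.844 to 0.934 (Pearson, across probe sets, which are no replicates). Control transcripts that the array protocol adds to every sample (BioB, BioC, BioD and CreX) averaged from 13.27 to 14.02 (log2 signal, 9 probe sets) on giant-cell arrays and from 12.63 to 13.12 on control arrays, so that they did not overlap between cell types. With the arrays scaled to these transcripts, the median log2 difference of all 12080 probe sets tested was -0.51 rather than 0.15, and 3.92% of them were higher and 40.1% lower in giant cells. At 21 days this scaling gave 1.17% higher and 28.1% lower, and at 14 days 2.98% and 19.5%. Each rise below is relative to the authors' scaling. Under the other scaling none of the chromatin genes rose past the threshold on either day or in the mean of both. Whether the added transcripts follow the amount of RNA or the brightness of an array was not tested. Neither scaling is therefore shown to give amounts per cell. Genes listed as markers of other tissues, not all of them root tissues, differed in part between the cell types. Of 3 genes listed as markers of root meristem and cap (kn1, lg3 and rs2) the 2 tested were higher in giant cells (lg3, 1.94, and rs2, 1.54, log2). The 3 summed to 186.1 to 486.6 in giant cells and 60.4 to 152.7 in control cells. The 4 tested growth-regulating factor genes of 8 were higher too (sums of 932.3 to 1505.6 in giant cells and 351.2 to 827.7 in control cells). Of 4 xylem markers 3 were lower. The sums of the 4 did not overlap at 14 days (307.6 to 1016.9 in giant cells and 1596.2 to 3021.5 in control cells). At 21 days they did not overlap either (314.4 to 701.6 in giant cells and 715.2 to 2744 in control cells). Sums of giant cells at 14 days overlapped those of control cells at 21 days. None of the genes in these 3 lists was below the offset of 9.5 on every array. Of 9 endosperm storage and starch markers the 2 tested were higher (sums of 867.2 to 1241.1 in giant cells and 349.4 to 627.9 in control cells), and 2 of the 9 were below the offset on every array. Of the 2 root hair and epidermis markers 1 was higher and 1 lower, and the 1 tested photosynthesis marker of 3 did not pass. The part of all these in the results on chromatin genes was not tested, and fewer cells of a type and less RNA per cell cannot be told apart in such samples.

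Averaged over both days, 14 of the 40 tested chromatin genes were higher and 3 lower in giant cells (limma, adjusted p below 0.05 over all probe sets). That is 35% and 7.5%, beside 25.1% higher and 17% lower among all 12080 probe sets tested. The 14 include sdg113 and epl101, which the filter admitted through giant-cell arrays alone, the cell type in which they were higher. Without them 12 of 38 were higher (31.6%) and 3 lower. The median log2 difference of the 40 genes was 0.33, beside 0.15 for all probe sets, and the range ran from -2.13 to 1.20. Most differences were small: only nfd101, ham101 and dmt106 passed the threshold with a difference of at least 1 on the log2 scale. The genes past the threshold as higher came from most families, namely the MYST acetyltransferase gene ham101, the DNA methyltransferase gene dmt106, the Polycomb gene vef101, the methyl-binding genes mbd101 and mbd108, epl101, the deacetylase genes hdt103 and hdt102, sdg113, the HMG genes nfd102 and nfd104, the bromodomain gene brd103, hag101 and nfc102. Those that fell were the HMG gene nfd101, the SET domain gene sdg118 and the methyl-binding gene mbd115.

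For 6 of the 40 genes, all of them among the risers, every one of the 6 giant-cell arrays lay above every one of the 6 control arrays, a pattern shown upward by 9.31% of all probe sets. They were ham101, dmt106, hdt103, brd103, hag101 and nfc102, each by its brightest probe set. A dimmer probe set of hdt103 and those of nfc102 overlapped. No chromatin gene had all giant-cell arrays below all control arrays, beside 7.41% of all probe sets. When any single array was left out, 11 of the 17 called genes stayed past the threshold each time: dmt106, hdt102, hdt103, nfd101, nfd102, nfd104, vef101, hag101, ham101, brd103 and mbd101. With scaling to the added transcripts, the median of the 40 genes was -0.35, and 0 were past the threshold as higher and 11 as lower.

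**Figure D1:**
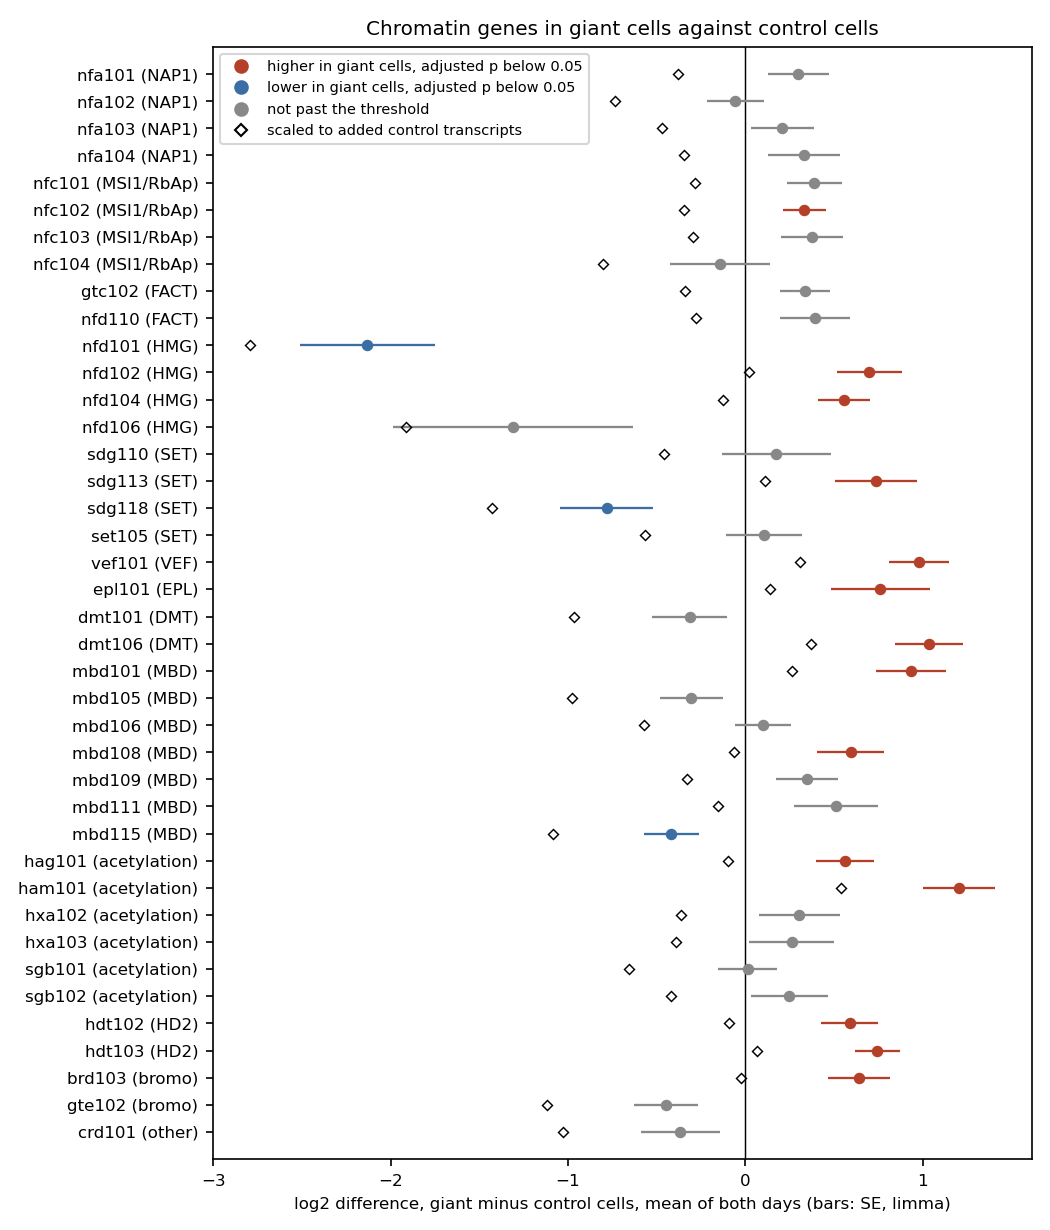
Log2 difference of the 40 tested chromatin genes, giant minus control cells, averaged over days; filled points with SE bars are the values of the text, coloured by whether they passed the threshold, and open diamonds are the same differences with arrays scaled to the added control transcripts. The filled points run from -2.13 for nfd101 to 1.20 for ham101, and every diamond lies to the left of its point.

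Of 8 histone chaperone genes of the NAP1 and MSI1 families, 1 passed the threshold, beside 42.2% of all probe sets in either direction. None of the 4 NAP1 family genes, which encode chaperones of histones H2A and H2B, passed the threshold: nfa104 stood at 0.33 ± 0.20 (log2 difference ± SE, 6 arrays against 6, limma adjusted p = 0.21), nfa101 at 0.30, nfa103 at 0.21 and nfa102 at -0.06. Among 4 genes of the MSI1 family, whose WD40 proteins take part in nucleosome assembly and in Polycomb complexes, nfc102 rose by 0.33 ± 0.12 (1.26-fold, limma adjusted p = 0.039). Signals of nfc102 were 2351.3, 2109.7 and 2282.6 in giant cells and 1859.3, 2005.1 and 1965.2 in control cells at 21 days, and 2065.2, 2102.6 and 2161.2 in giant cells and 1491.6, 1786.0 and 1356.0 in control cells at 14 days. The cell types did not overlap, but the step was small, and the call was lost without any array other than giant 21-day array 2 or control 14-day array 2 (adjusted p up to 0.091). A dimmer probe set of nfc102 stood at 0.43 (adjusted p = 0.028) and another at 0.24 (adjusted p = 0.24), and for both of these the cell types overlapped. The genes nfc101 (synonym rbap2, 0.39, adjusted p = 0.058), nfc103 (0.37) and nfc104 (-0.14) did not pass, though nfc103 did without giant 14-day array 3 (adjusted p = 0.014).

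The FACT complex, which loosens nucleosomes for polymerases, has the subunits SPT16 and SSRP1, encoded here by gtc102 and nfd110. At 14 days nfd110 gave 905.7, 837.6 and 757.1 in giant cells and 341.7, 535.3 and 513.5 in control cells, and gtc102 gave 1339.6, 1586.8 and 1375.2 in giant cells and 962.8, 1051.5 and 995.9 in control cells. Both genes thus had all giant-cell arrays above the control arrays on that day, as did 18 of the 40 chromatin genes (45%) beside 26.1% of all probe sets. Those 18 include sdg113 and epl101, which the filter admitted through giant-cell arrays alone. The rise of nfd110 was 0.86 ± 0.28 (1.81-fold, 3 arrays against 3, limma adjusted p = 0.037), and gtc102 stood at 0.51 ± 0.20 (adjusted p = 0.075). At 21 days the cell types overlapped for both, with nfd110 at 466.6, 283.1 and 575.8 in giant cells and 376.6, 466.4 and 508.4 in control cells (-0.07, adjusted p = 0.88). Without any one of the 6 arrays of 14 days nfd110 was no longer past the threshold on that day (adjusted p up to 0.11). The mean of both days was 0.39 for nfd110 and 0.33 for gtc102, and neither passed, but nfd110 did without giant 21-day array 2 (adjusted p = 0.034) and gtc102 without control 21-day array 3 (0.043).

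The HMG genes, whose products bend DNA and loosen chromatin, moved in opposite directions: nfd102 and nfd104 rose in the mean of both days and nfd101 fell, while nfd106 did not pass. Signals of nfd101 at 21 days were 128.3, 608.0 and 112.3 in giant cells, against 3368.6, 3038.5 and 1864.2 in control cells. At 14 days they were 942.8, 833.9 and 1481.7 in giant cells, against 975.7, 1900.5 and 2410.6 in control cells. The cell types were far apart at 21 days and overlapped at 14 days. At 21 days nfd101 fell by 3.62 ± 0.54 on the log2 scale (12.3-fold, limma adjusted p = 0.0013), the deepest fall of any chromatin gene in these contrasts, whereas at 14 days it stood at -0.64 ± 0.54 (adjusted p = 0.39). In the mean of both days it fell by 2.13 ± 0.38 (4.38-fold, adjusted p = 0.00094). Its probe set is of a type that can also match transcripts of related genes.

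The gene nfd106 did not pass in any contrast. Its signals at 21 days were 38.1, 533.3 and 15.9 in giant cells and 903.6, 575.1 and 435.5 in control cells, so that giant 21-day array 2 was the high one for nfd106 as for nfd101. At 14 days nfd106 gave 750.6, 101.8 and 623.3 in giant cells and 181.7, 430.2 and 402.3 in control cells, which overlapped. Its arrays overlapped at 21 days too, and its difference was -1.31 ± 0.68 in the mean of both days (limma adjusted p = 0.13) and -2.83 at 21 days (adjusted p = 0.057). Without giant 21-day array 2, its mean difference was -1.97 (adjusted p = 0.0074), and that of nfd101 -2.51 (adjusted p = 7.5e-05).

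The gene nfd102 (synonym HMGe) was higher by 0.70 ± 0.19 in the mean of both days (1.62-fold, limma adjusted p = 0.0093), with signals of 3392.4, 2567.2 and 3675.3 in giant cells and 1427.5, 2025.3 and 2515.7 in control cells at 21 days. At 14 days nfd102 gave 1991.1, 1575.9 and 2198.9 in giant cells and 1548.1, 1131.6 and 932.4 in control cells. The giant-cell arrays were above the control arrays on each day. The gene nfd104 (synonym hmg2) was higher by 0.56 ± 0.15 (1.47-fold, adjusted p = 0.0091), with 9434.0 ± 560.1 in giant cells and 6012.6 ± 208.0 in control cells at 21 days (mean ± SD, n = 3), and a dimmer probe set of it by 1.08 (adjusted p = 0.016). For the brighter probe set the cell types did not overlap at 21 days but did at 14 days. For the dimmer one they did not overlap on either day. The brighter one is of a type that can also match transcripts of related genes. At 21 days alone its rise of 0.65 (adjusted p = 0.046) was lost without any array other than control 14-day array 1 or 3 or giant 14-day array 3 (adjusted p up to 0.12). The dimmer probe set stood at 0.82 on that day (adjusted p = 0.22). At 14 days the pattern of the probe sets was the other way round, with 0.46 for the brighter one (adjusted p = 0.11) and a rise of 1.34 for the dimmer one (adjusted p = 0.043). Both genes were near 0 with scaling to the added transcripts (nfd102 at 0.02 and nfd104 at -0.12).

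Polycomb and SET domain genes held the single call between days. The gene vef101 (synonym EMF-like) encodes a protein of the VEF family, partners of the SET domain methyltransferase in the Polycomb complex that methylates histone H3. Its signals at 14 days were 1495.3, 1808.2 and 1400.9 in giant cells, against 744.1, 477.0 and 548.8 in control cells. At 21 days they were 606.9, 664.3 and 767.7 in giant cells, against 365.0, 463.6 and 573.3 in control cells. Giant cells were above control cells on both days, and those of 14 days stood above all other arrays. The rise was 1.41 ± 0.24 at 14 days (2.66-fold, limma adjusted p = 0.0017), 0.55 ± 0.24 at 21 days (adjusted p = 0.12) and 0.98 ± 0.17 in the mean of both days (1.97-fold, adjusted p = 0.00075). Within giant cells, vef101 was lower at 21 than at 14 days by -1.19 ± 0.24 (2.29-fold, adjusted p = 0.045), the single chromatin gene to pass there, beside 0.637% of all probe sets. That call was lost without any one giant-cell array, control 14-day array 2 or 3, or control 21-day array 2 (adjusted p up to 0.16). The difference between the effects on the days, -0.86 ± 0.34, did not pass (adjusted p = 0.65).

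Of the 4 SET domain genes, sdg113 was past the threshold as higher and sdg118 fell. Signals of sdg113 at 14 days were 212.2, 310.7 and 157.9 in giant cells and 95.0, 75.3 and 129.8 in control cells. At 21 days they were 168.4, 177.9 and 125.3 in giant cells and 102.7, 111.4 and 138.0 in control cells. Its cell types separated at 14 days and overlapped at 21 days. The difference was 0.74 ± 0.23 in the mean of both days (1.67-fold, limma adjusted p = 0.021) and 1.09 ± 0.33 at 14 days (adjusted p = 0.026), and its dimmer probe set stood at 0.98 (adjusted p = 0.011). Because the filter admitted both probe sets through giant-cell arrays, these p-values are no independent support; with no filter the values were 0.030 in the mean of both days and 0.037 at 14 days. The mean was not past the threshold without control 14-day array 2 (adjusted p = 0.053) or giant 14-day array 2 (0.059), and the difference at 14 days not without these or giant 14-day array 1 (up to 0.11).

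The SET domain gene sdg118 gave 140.2, 171.2 and 131.4 in giant cells and 292.1, 288.1 and 230.7 in control cells at 21 days, without overlap. At 14 days it gave 150.3, 245.4 and 116.2 in giant cells and 454.2, 297.3 and 155.7 in control cells, with overlap. Its fall in the mean of both days was -0.78 ± 0.26 (1.72-fold, limma adjusted p = 0.029), and it was lost without any array other than array 3 of control cells on either day or array 2 of giant cells on either day (adjusted p up to 0.069). The remaining SET domain genes, sdg110 and set105, stood at 0.17 and 0.10, and another probe set of sdg110 at -0.46, none past the threshold. The enhancer of polycomb-like gene epl101, also admitted through giant-cell arrays alone, stood at 0.76 ± 0.28 (1.69-fold, adjusted p = 0.043, and 0.050 and outside the threshold with no filter), at low signals of 132.4 ± 46.9 in giant cells and 73.3 ± 25.3 in control cells at 21 days, and of 166.0 ± 39.0 in giant cells and 97.1 ± 32.3 in control cells at 14 days. Without any array other than giant 21-day array 1, control 14-day array 2 or control 21-day array 3, epl101 did not pass (adjusted p up to 0.11).

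The DNA methyltransferase genes differed from each other. The gene dmt106 was higher in giant cells by 1.04 ± 0.19 (2.05-fold, limma adjusted p = 0.0012). Its signals at 21 days were 757.6, 800.6 and 656.5 in giant cells and 398.2, 238.6 and 472.3 in control cells, and at 14 days 735.9, 733.7 and 919.9 in giant cells and 457.0, 411.8 and 289.4 in control cells. No giant-cell array of either day overlapped a control array, and the effect was of like size on both days, 1.03 at 21 days (adjusted p = 0.022) and 1.04 at 14 days (adjusted p = 0.014). At 21 days the call was lost without array 1 or 2 of giant cells or array 2 of control cells (adjusted p up to 0.088), and at 14 days without array 3 of either cell type (up to 0.058). The gene dmt101 (synonyms met1 and ZMET1), a member of the class that maintains methylation at CG sites, did not pass in the mean of both days (-0.31 ± 0.21, adjusted p = 0.25). Its giant-cell signals were 191.0, 134.0 and 132.0 at 21 days and 344.2, 361.1 and 369.0 at 14 days, against 216.4, 354.2 and 251.4 at 21 days and 215.0, 320.2 and 457.9 at 14 days in control cells. The giant-cell arrays of 21 days were the lowest for dmt101, below all control arrays. The difference within giant cells was -1.20 ± 0.30 for 21 against 14 days (adjusted p = 0.080), and giant against control cells at 21 days gave -0.80 (adjusted p = 0.081).

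Of 7 methyl-CpG-binding domain genes, mbd101 and mbd108 rose, mbd115 fell and 4 did not pass. For mbd101 the signals were 1453.6, 1448.3 and 1626.2 in giant cells and 464.0, 497.5 and 966.0 in control cells at 21 days, and 902.3, 814.0 and 604.8 in giant cells and 582.4, 508.0 and 451.3 in control cells at 14 days. Its giant-cell arrays were above the control arrays of the same day, with the highest values at 21 days. The rise of mbd101 was 0.93 ± 0.20 (1.91-fold, limma adjusted p = 0.0025) in the mean of both days, 1.30 ± 0.28 at 21 days (2.46-fold, adjusted p = 0.0085) and 0.57 at 14 days (adjusted p = 0.14), and the difference between days was not past the threshold.

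The gene mbd108 rose by 0.59 ± 0.19 (1.51-fold, limma adjusted p = 0.024), with 314.8 ± 43.4 in giant cells and 218.4 ± 62.2 in control cells at 21 days, and 316.8 ± 68.2 in giant cells and 195.7 ± 22.0 in control cells at 14 days. This call was lost without control 14-day array 2, control 21-day array 1, giant 14-day array 1 or giant 21-day array 3 (adjusted p up to 0.062). The fall of mbd115 was -0.42 ± 0.15 (1.33-fold, adjusted p = 0.044), with 462.8, 536.2 and 387.4 in giant cells and 553.2, 563.4 and 568.3 in control cells at 21 days, and 624.8, 472.9 and 440.1 in giant cells and 826.5, 637.7 and 782.6 in control cells at 14 days. It was the one faller whose giant-cell arrays lay below the control arrays on each day. It was past the threshold without giant 21-day array 2, giant 14-day array 1 or control 14-day array 2, and not without any other (adjusted p up to 0.10). The other genes ranged from -0.30 for mbd105 to 0.51 for mbd111, and mbd109 (adjusted p = 0.018) and mbd111 (0.021) passed without control 21-day array 3.

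Among the genes of acetylation, ham101 showed the largest rise of all the chromatin genes in the mean of both days. It encodes an acetyltransferase of the MYST family, whose members act on histone H4 in other species. Its signals at 21 days were 634.0, 781.0 and 928.0 in giant cells and 195.9, 281.9 and 342.3 in control cells, and at 14 days 642.0, 871.3 and 738.2 in giant cells and 567.5, 344.5 and 309.5 in control cells. All giant-cell arrays were above all control arrays. The rise was 1.20 ± 0.20 (2.30-fold, limma adjusted p = 0.00064) in the mean of both days, 1.50 ± 0.29 at 21 days (2.83-fold, adjusted p = 0.0048) and 0.91 ± 0.29 at 14 days (1.87-fold, adjusted p = 0.033). At 14 days it was lost without array 2 or 3 of either cell type (adjusted p up to 0.12), and with scaling to the added transcripts its mean difference was 0.54 (adjusted p = 0.070).

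The gene hag101 (synonyms gcn5 and GNAT6), the acetyltransferase of the SAGA type of coactivator complex, rose by 0.56 ± 0.16 (1.48-fold, limma adjusted p = 0.015). Its signals were 512.0, 325.5 and 428.1 in giant cells and 280.7, 266.3 and 311.2 in control cells at 21 days, and 372.7, 499.5 and 403.6 in giant cells and 275.2, 253.8 and 297.2 in control cells at 14 days, without overlap. Its known partner ADA2, encoded by hxa102, stood at 0.31 ± 0.23 (adjusted p = 0.30) with overlapping arrays. The genes hxa103 (synonym MYBR106, 0.26), sgb102 (synonym GNAT19, 0.25) and sgb101 (synonym GNAT17, 0.01) did not pass.

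Both genes of the HD2 family, deacetylases found in plants, rose. The signals of hdt103 were 14145.0, 10597.7 and 13647.2 in giant cells and 8267.6, 8212.5 and 6462.0 in control cells at 21 days, and 9317.5, 8752.9 and 11364.3 in giant cells and 5107.2, 6322.0 and 6038.8 in control cells at 14 days. No giant-cell array overlapped a control array. The rise of hdt103 was 0.74 ± 0.13 (1.68-fold, limma adjusted p = 0.00067), with 0.74 at 21 days (adjusted p = 0.015) and 0.75 at 14 days (adjusted p = 0.0093). Its 3 dimmer probe sets rose too, by 0.63 to 0.76 in the mean of both days. For the dimmest of them the cell types overlapped at 21 days (giant cells from 4630.7, control cells up to 4640.5). It did not pass on that day (limma adjusted p = 0.063). At 21 days alone the call of the brightest probe set was lost without array 1 (adjusted p = 0.066) or array 3 (0.051) of giant cells. The gene hdt102 (synonym HD2b) rose by 0.59 ± 0.16 (1.50-fold, adjusted p = 0.011), with giant-cell arrays above the control arrays of the same day, at 5548.2 ± 521.3 in giant cells and 3906.7 ± 1077.4 in control cells at 21 days, and 5151.3 ± 458.9 in giant cells and 3366.6 ± 798.3 in control cells at 14 days. With scaling to the added transcripts hdt103 was at 0.06 and hdt102 at -0.09.

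Of the bromodomain genes, which encode readers of acetylated histones, brd103 rose and gte102 did not pass. Signals of brd103 were 558.6, 529.5 and 622.3 in giant cells and 259.0, 419.7 and 386.9 in control cells at 21 days, and 794.4, 673.1 and 508.6 in giant cells and 385.3, 493.3 and 409.7 in control cells at 14 days. The cell types did not overlap, and the rise was 0.64 ± 0.17 (1.56-fold, limma adjusted p = 0.011). The gene gte102 stood at -0.45 ± 0.18 (adjusted p = 0.061), and it passed without giant 14-day array 2 (0.041) and with quantile normalization (0.038). The gene crd101, whose role is not given in the sources used here, stood at -0.37 (adjusted p = 0.20).

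**Figure D2:**
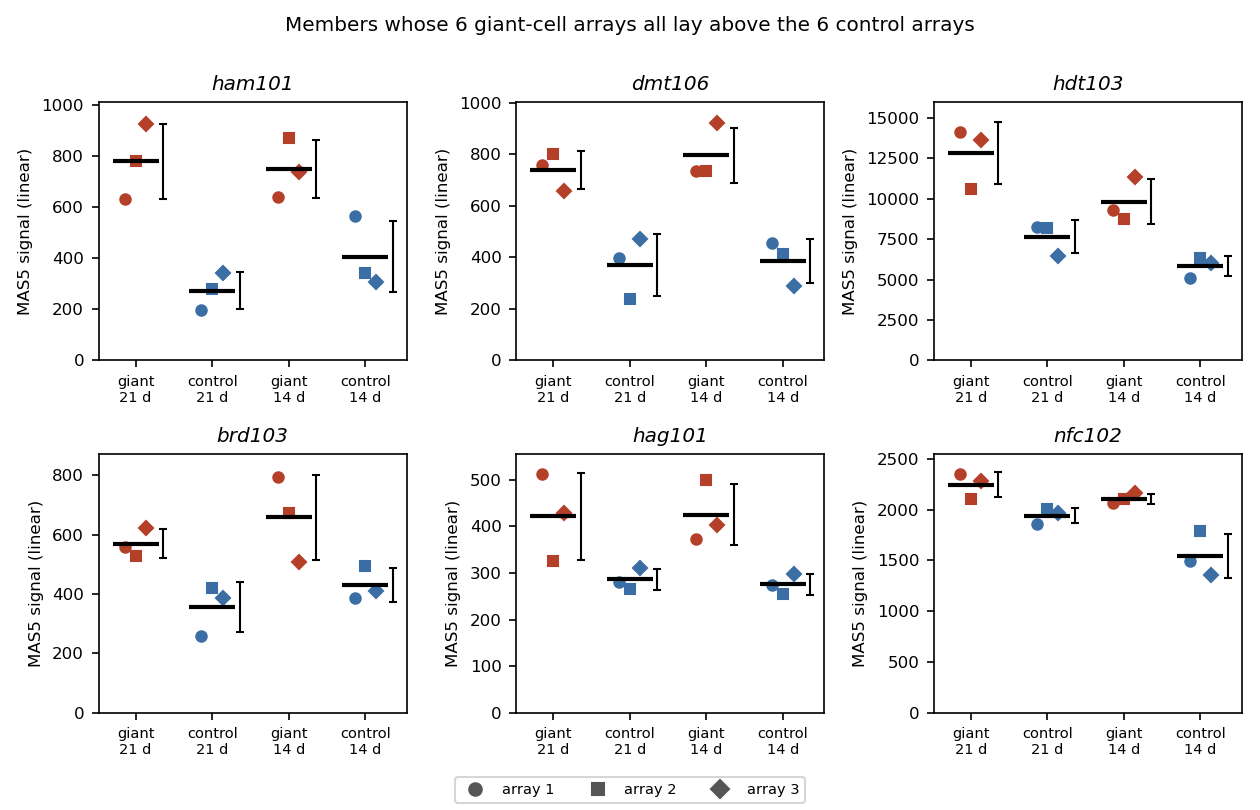
MAS5 signal on a linear scale for 6 members on each of the 12 arrays, giant cells in red and control cells in blue at 21 and 14 days; horizontal lines are means and bars are SD (n = 3). In every panel the 6 giant-cell arrays lie above the 6 control arrays, for ham101 from 634.0 upward in giant cells and up to 567.5 in control cells.

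Taken day by day, 5 of the 40 genes were higher and 1 lower in giant cells at 21 days (beside 9.63% and 8.73% of all probe sets). At 14 days 6 were higher and 0 lower (beside 15.5% and 12%). The 6 include sdg113, which the filter admitted through giant-cell arrays alone. At an unadjusted p below 0.05, 15 genes passed at 21 days (beside 34.5% of all probe sets) and 16 at 14 days (beside 40.5%). The genes ham101, dmt106 and hdt103 rose on each day. The genes mbd101 and nfd104 passed as rises at 21 days alone, though the dimmer probe set of nfd104 passed at 14 days alone, and vef101, sdg113 and nfd110 at 14 days alone. The call of lower at 21 days was nfd101. The sign of the difference was positive on both days for 27 of the 40 genes and negative on both for 6. The share of all probe sets with such signs was not computed, and their median difference was itself positive (0.126 at 21 days and 0.163 at 14 days). At 21 days 12 genes had all giant-cell arrays above the control arrays and 5 below (30% and 12.5%, beside 22.7% and 15.5% of all probe sets, or 38.2% in either direction). At 14 days these numbers were 18 above and 2 below (45% and 5%, beside 26.1% and 17.3%). Among the 18 are sdg113 and epl101, so these 2 are no independent support for the share above.

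The difference in effect between the days passed for 0 of the 40 genes in limma and for 0% of all probe sets, and 7 of the 40 had an unadjusted p below 0.05 (beside 6.95% of all probe sets). The largest such differences, 21 minus 14 days, were those of nfd106 (-3.04 ± 1.35, adjusted p = 0.70) and nfd101 (-2.98 ± 0.76, adjusted p = 0.45), followed by nfc104 (-1.30), dmt101 (-0.97), nfd110 (-0.93) and vef101 (-0.86). The single member with an unadjusted p below 0.05 and a positive difference was mbd105 (0.79). A pass at 21 days and not at 14 days, as for nfd101, is thus not shown to be a difference between the days.

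**Figure D3:**
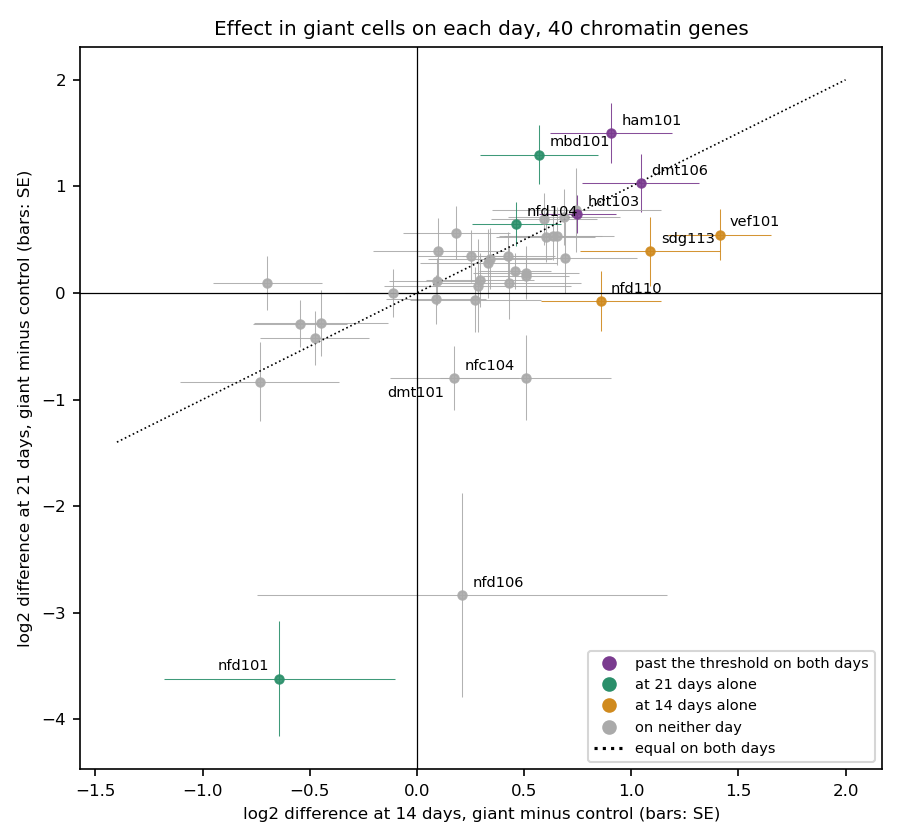
Log2 difference, giant minus control cells, at 14 days (horizontal) and at 21 days (vertical) for the 40 tested chromatin genes, with SE bars and a dotted line of equal effect. Most points lie near the line, while nfd101 (-0.64 at 14 days, -3.62 at 21 days) and nfd106 (0.21 at 14 days, -2.83 at 21 days) lie far below it.

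Within one cell type, 21 against 14 days, 1 chromatin gene passed the threshold. In giant cells 0 were higher and 1, vef101, was lower (beside 0.273% and 0.364% of all probe sets), and 13 had an unadjusted p below 0.05 (beside 17.7% of all probe sets). In control cells none was called, beside 0.0248% of all probe sets, and 6 had an unadjusted p below 0.05 (beside 9.85%). After vef101 the smallest adjusted p-values in giant cells were those of nfd101 (-2.28 ± 0.54, limma adjusted p = 0.070) and dmt101 (-1.20, adjusted p = 0.080), ahead of mbd101 (0.97, adjusted p = 0.11) and nfd110 (-0.95, adjusted p = 0.12). All 4 NAP1 family genes had positive differences in both cell types, and none passed. Signals of nfa103 were 4133.5, 3403.3 and 3304.1 in giant cells at 21 days, against 2520.7, 1893.8 and 2419.1 at 14 days, and 3186.6, 4034.1 and 2801.3 in control cells at 21 days, against 1287.7, 2566.3 and 1891.7 at 14 days. The arrays of 21 days were above those of 14 days in each cell type, and the differences for nfa103 were 0.67 ± 0.25 in giant cells (adjusted p = 0.19) and 0.84 ± 0.25 in control cells (adjusted p = 0.34), which did not pass. For nfa104 they were 0.70 in giant cells and 0.72 in control cells, for nfa102 0.77 in giant cells and 0.66 in control cells, and for nfa101 0.39 in giant cells and 0.29 in control cells, none past the threshold.

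**Figure D4:**
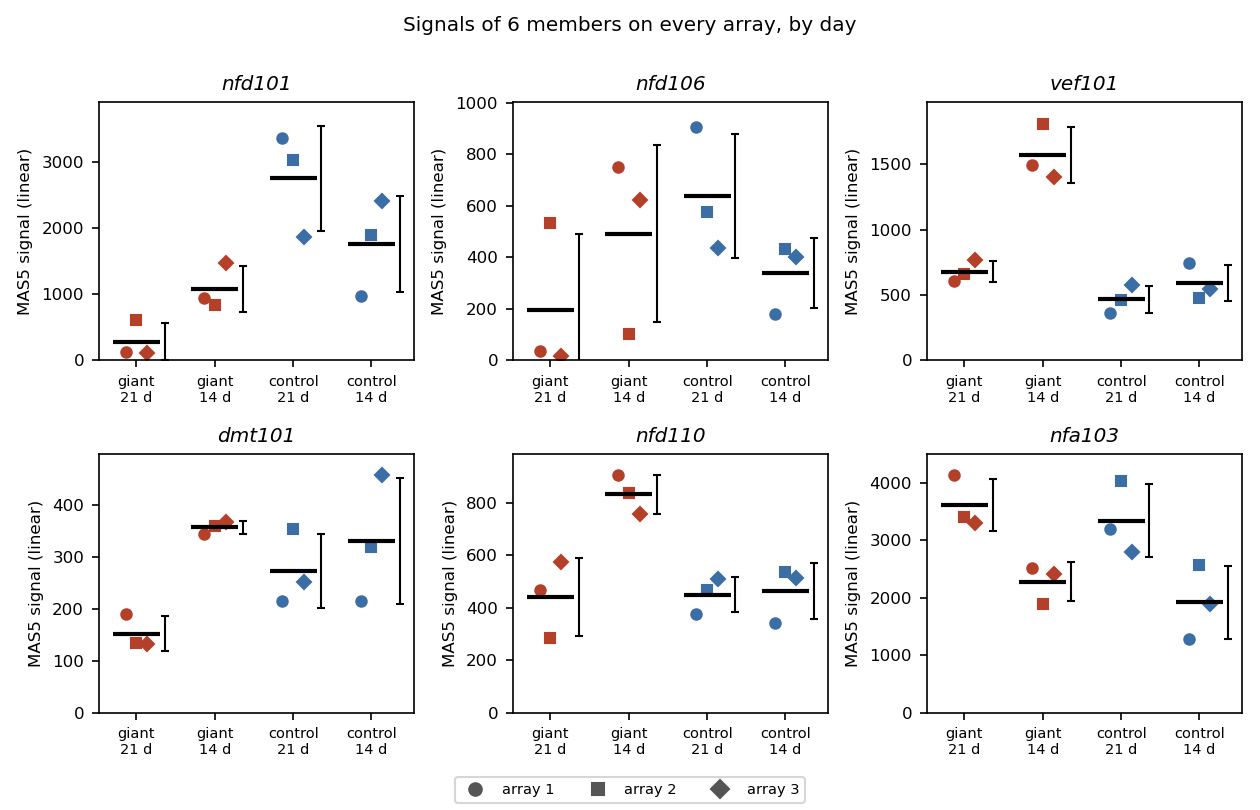
MAS5 signal on a linear scale for 6 members on each of the 12 arrays, giant cells in red at 21 and 14 days and then control cells in blue at 21 and 14 days; horizontal lines are means and bars are SD (n = 3), clipped at 0. Array 2 of giant cells at 21 days is the high point of its group for nfd101 (608.0) and nfd106 (533.3), and vef101 is highest in giant cells at 14 days (1400.9 to 1808.2).

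Other chromatin and cell cycle genes named on the array give the setting. Beyond the members, 6 of 8 tested histone deacetylase and acetyltransferase genes were higher in giant cells in the mean of both days and 0 lower (beside 25.1% and 17% of all probe sets), with a median of 0.67 (hda106, 1.36, and hda113, 1.15, were the largest). Of 3 linker histone genes, which bind the DNA between nucleosomes, hon101 (1.09) and his1a (0.67) rose and H1 fell (-0.41) in the mean of both days. The sign for H1 differed by day, with 0.435 at 14 days (limma adjusted p = 0.15) and -1.255 at 21 days (0.0029). For hon101 and his1a it was positive on both days. The single core histone gene, his2b5, stood at -0.13 in the mean of both days (limma adjusted p = 0.80). It was at 0.906 at 14 days (adjusted p = 0.22) and at -1.165 at 21 days (0.14). Of 25 genes matched as DNA replication and cell cycle genes 17 were tested, of which 3 were higher and 7 lower (beside the same 25.1% and 17%, median -0.70). Among them PCNA (-1.65) and pcna2 (-1.43), the sliding clamp that recruits chromatin assembly factors to new DNA, fell, and orc1 (0.77) and RBR1 (0.70) rose. PCNA was lower on both days, whereas pcna2 stood at 0.195 at 14 days (limma adjusted p = 0.84) and -3.053 at 21 days (0.0089). The difference in effect between the days passed for 0% of all probe sets. The name-based list is loose. Its other 5 fallers were krp4, krp6, krp11, krp13 and cyclotide, and its other riser was krp15. The cyclotide gene was matched by the first letters of its name alone, and the krp names alone do not show what those genes encode.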

How the data were processed

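The deposited values are intensity: MAS5 signals on a linear scale, computed with Affymetrix Expression Console per the submitters' processing notes, with 1 biotin-labelled, amplified sample per array. Each array had the same trimmed mean (500.1 or 500.2 without the outer 2% at each end), so the authors had scaled the arrays alike. No scaling target, detection call or scan date was used. The number of arrays limits the precision.

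Manufacturer's controls (113 of 17734 probe sets) were left out. Before log2, 9.5 (the signals' 10th percentile) was added as an offset, which compresses folds of dim genes. Probe sets above the 40th percentile of their array on at least 3 arrays were tested, 12080 in all. One mean per group was fitted to the 12 arrays with limma 3.58.1 (lmFit, eBayes with a trend, R 4.3.3). The two-sided p-values were adjusted over all probe sets tested (Benjamini-Hochberg, threshold 0.05). The fit was tested on simulated data with known changes. The labels call the replicates biological without naming plants, so the p-values set each difference against the spread between these samples.

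The platform annotation names 1 gene for 1452 probe sets. Synonyms came from the RefSeq table of the B73 reference assembly, which was used for names alone. The members, their family labels and the gene lists were chosen with earlier results of these data known. Alternatives were other offsets, quantile normalization, scaling to the added control transcripts, no filter or a stricter one (60th percentile), no variance trend, a replicate block, other probe sets and each array left out. Leaving out both arrays numbered 3 at 14 days was added after seeing the data.

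Every tested member could be named, with full statistics for those past the threshold in any contrast and for the smallest p-values of a role group where none passed. Other members singled out were chosen after their values were seen. Roles follow the name prefix and synonyms.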

Additional observations from a re-analysis of the deposited data

How the results depend on the processing

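Offsets of 1 and 32 changed no direction and no call among the 40 mean differences and the 13 called differences of single days or between days that were rerun. Scaling to the added control transcripts changed most: in the mean of both days 0 members were higher and 11 lower, at 21 days 0 and 8 (with 29.3% of all probe sets called), at 14 days 0 and 3, and in giant cells for 21 against 14 days 0 were lower. Log2 differences that reversed in the mean of both days were those of gtc102 (-0.34), nfd110 (-0.28), hdt102 (-0.092), nfd104 (-0.12), nfc101 (-0.28), nfc102 (-0.34), nfc103 (-0.30), sdg110 (-0.46), set105 (-0.56), hag101 (-0.10), hxa102 (-0.36), hxa103 (-0.39), sgb101 (-0.66), sgb102 (-0.42), brd103 (-0.025), mbd106 (-0.57), mbd108 (-0.062), mbd109 (-0.33), mbd111 (-0.16), nfa101 (-0.38), nfa103 (-0.47) and nfa104 (-0.35), and at 21 days hdt103 (-0.058) and nfd104 (-0.15). The cause was not tested. Quantile normalization gave 10 higher and 2 lower at 14 days and put sgb101 at -0.043, and a dimmer probe set put sdg110 at -0.46. With both arrays numbered 3 at 14 days left out, 2 were higher at 14 days (11.3% of all probe sets called), 0 lower in giant cells between days, nfd102 did not pass in the mean of both days (adjusted p = 0.053), nfc104 was at 0.062 and mbd106 at -0.012. Arrays of 1 number in both cell types are not known to share plants, and their deviations from the group means correlated at -0.07 to 0.17. The replicate block gave 3 higher at 21 days and 0 lower in giant cells for 21 against 14 days. The block also left mbd115, nfc102 and sdg113 outside the threshold in the mean of both days. For 21 against 14 days in giant cells, no filter and no variance trend each gave 0 lower.

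Leaving out single arrays gave 11 to 16 members higher and 1 to 4 lower in the mean of both days, 3 to 7 higher and 0 to 1 lower at 14 days, 2 to 5 higher and 1 to 2 lower at 21 days, 0 to 1 lower in the difference between days and 0 to 3 lower in giant cells between days. All probe sets called ranged from 17.3% to 28.8% at 14 days and from 8.61% to 20.4% at 21 days. Values near 0 that changed sign were nfc104 (-0.343 to 0.020), sdg110 (-0.019 to 0.356), sgb101 (-0.106 to 0.082) and nfa102 (-0.140 to 0.020). Of the 17 calls in the mean of both days, 10 held under every alternative other than scaling to the added transcripts, with other probe sets not counted. By the same measure 1 of 6 calls held at 14 days (vef101) and 3 of 6 at 21 days (nfd101, ham101 and mbd101). The 1 call between days in giant cells did not hold. Under the stricter filter 6 of the 53 tested values were not available, because their probe sets were too dim.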
